A study of Mus musculus with 21 samples.

Results

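Imprinted growth genes are genes of which mainly the copy from one parent is transcribed and whose products promote or restrain growth. The 10 genes described here, listed in the count tables as PEG3, GRB10, H19, DLK1, MEST, PLAGL1, CDKN1C, NDN, SGCE and ZIM1, were found by symbol among the 24447 gene symbols shared by the 3 tables. Peg3 and Grb10 were chosen by the strength of their changes in these same counts, so their values are given as a description with no test, and the other 8 were taken as further imprinted genes.

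Imprinted genes lie in clusters, called domains, in which DNA methylation laid down in the egg or the sperm marks one parental copy and silences or releases its neighbours. Many act in the embryo and placenta and are turned down after birth, and as a broad rule paternally expressed members favour growth while maternally expressed members restrain it. Fibroblasts from embryos keep several of them on, and their loss or biallelic use is a known feature of cells kept in culture.

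Bulk RNA-seq covered 21 mouse fibroblast cultures in 7 groups of 3. All were primary cells immortalised with human papillomavirus oncogenes, and all were grown in the same medium. WT MEF, Prrx1 mutant MEF and sgPrrx1 MEF were C57BL/6 mouse embryonic fibroblasts from E10 to E13. The mutant cells, labelled KI, carried the germline allele Prrx1tm1Jfm, a LacZ insertion in the homeobox gene Prrx1. WT and sgPrrx1 wound-healing fibroblasts were C57BL/6 cells from dorsal wounds of mice at day 10. WT and sgPrrx1 MMTV-CAF were FVB/NJ cancer-associated fibroblasts (CAF) from MMTV-PyMT mammary tumours, in which the MMTV promoter drives the oncogene in mammary epithelium. Cells labelled sgPrrx1 were edited with CRISPR/Cas9 and a guide RNA against Prrx1, and the labels name a control guide, sgNS, for WT. Whether an edited line was 1 clone or a pool, and whether the 3 cultures of a group came from separate animals, is not given in the sources used here, so p-values measure the spread between cultures, which may be technical. Strain differs between MMTV-CAF and the other cells, and levels are compared across cell types as a description only.

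Total counts ranged from 69588655 to 134790440 per culture. Levels are given as CPM, the reads of a gene relative to library sizes that were scaled together over the 21 cultures, and replicates are given in the order 1, 2 and 3. Prrx1 was 12.3% of WT in Prrx1 mutant MEF, 66.6% in sgPrrx1 MEF, 44.1% in sgPrrx1 wound-healing fibroblasts and 48.4% in sgPrrx1 MMTV-CAF, and in none of the 4 comparisons did the cultures overlap. These reads can include transcripts of edited or LacZ-bearing alleles. The summed level of 9 fibroblast markers was at least 3239 CPM in every culture, but Lum was near 0 in all groups. Epithelial, immune, muscle, glial and pluripotency markers summed to at most 13.6 CPM per list. The fibroblast sum was lower in Prrx1 mutant MEF (5595 to 6848 CPM) than in WT MEF (12205 to 12475 CPM), and after editing in MEF (9589 to 11274 CPM), wound-healing fibroblasts (3239 to 3255 against 8230 to 8378 CPM) and MMTV-CAF (15762 to 15965 against 31716 to 32314 CPM). Endothelial markers, chiefly Kdr, summed to 287 to 293 CPM in WT and to 140 to 145 CPM in sgPrrx1 wound-healing fibroblasts. Some Y-linked genes also separated lines of 1 cell type, with Kdm5d at 10.6 to 11.7 CPM in WT MEF and at most 3 reads in Prrx1 mutant MEF, and Ddx3y at 20.04 to 22.3 against 1.96 to 2.18 CPM in WT and sgPrrx1 wound-healing fibroblasts. Of 5 listed sex-linked genes, Xist and Y-linked ones, 4 had 0 reads in both MMTV-CAF groups, and none did so throughout another group. The part of these differences in the changes described here was not tested. In bulk cultures fewer expressing cells and less RNA per cell cannot be told apart.

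The sequences just before the transcription starts of Peg3 and Grb10 are shown because these are the 2 members chosen by their changes, and because methylation of CG dinucleotides is what imprinting works through. They are RefSeq sequences of build GRCm38.p6, 250 bases upstream of a start, 5′ to 3′ on the gene's strand with CG in capitals. Peg3 lies on the minus strand of chromosome 7, and Grb10 on the minus strand of chromosome 11 with a pair of annotated starts.
Peg3, chr7:6730420-6730669: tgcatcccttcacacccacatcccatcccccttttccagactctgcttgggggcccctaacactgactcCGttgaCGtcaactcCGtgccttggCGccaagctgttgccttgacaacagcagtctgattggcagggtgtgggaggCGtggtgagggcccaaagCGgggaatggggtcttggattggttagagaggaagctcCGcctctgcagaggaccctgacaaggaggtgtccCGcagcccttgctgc
Grb10 upstream start, chr11:12037421-12037670: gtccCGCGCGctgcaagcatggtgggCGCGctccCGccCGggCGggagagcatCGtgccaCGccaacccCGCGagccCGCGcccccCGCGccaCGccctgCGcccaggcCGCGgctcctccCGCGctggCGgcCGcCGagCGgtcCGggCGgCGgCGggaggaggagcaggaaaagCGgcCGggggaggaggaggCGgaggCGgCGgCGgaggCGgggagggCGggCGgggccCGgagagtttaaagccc
Grb10 downstream start, chr11:12027972-12028221: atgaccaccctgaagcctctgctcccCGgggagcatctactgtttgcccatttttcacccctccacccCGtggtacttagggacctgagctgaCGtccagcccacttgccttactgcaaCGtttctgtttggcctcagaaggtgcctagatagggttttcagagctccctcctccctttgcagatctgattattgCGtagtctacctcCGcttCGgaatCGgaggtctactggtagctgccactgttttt
The window at the upstream Grb10 start held 40 CG dinucleotides and the downstream one 8, against 8 at Peg3 and a median of 6 over 32851 windows. Observed over expected CG was 0.983 at the upstream Grb10 start, higher than in 93.4% of all windows, and 0.351 at Peg3, close to the median of 0.373. RefSeq entries were matched for 7 of the 10 genes, with 10 windows in all. The homeodomain core TAATTA, the kind of site Prrx1 binds, was searched on both strands and was in 0 of these 10 windows and in 4.84% of all windows. With so few windows and so rare a motif, this says nothing about binding of Prrx1. Sequence outside the windows was not searched. No methylation was measured here.

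H19 is a long noncoding RNA that is also the precursor of miR-675, whose mature strands are shown with the seed (bases 2 to 8) in capitals because H19, their host transcript, is among the members with the largest changes. The miRNAs themselves were not measured.
mmu-miR-675-5p, chr7:142577112-142577133: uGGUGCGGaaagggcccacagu
mmu-miR-675-3p, chr7:142577078-142577099: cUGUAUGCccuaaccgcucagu

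Among maternally expressed genes, Grb10 encodes an adaptor that binds the insulin and IGF1 receptors and restrains growth. Its gene spans chr11:11930499-12037428 (GRCm38). Grb10 was abundant in 6 groups and listed at 0 in the seventh. WT MMTV-CAF had 199, 196 and 205 CPM, from 21259, 22541 and 27090 reads, whereas each of the 3 sgPrrx1 MMTV-CAF cultures had 0 reads, at least 7932-fold lower with 3 counts allowed per library. By size of the fitted log2 fold change this was first of the 13903 genes tested in that comparison. That rank restates how Grb10 was chosen and, against 0 reads, depends on its counts in WT. Of 9330 genes with at least 1000 counts in every WT MMTV-CAF culture, 19 had 0 counts in all 3 edited cultures, and Grb10 had the highest counts in WT among them. In no other group was it below 152 CPM. It was at 222, 216 and 227 CPM in WT and at 152, 154 and 153 CPM in sgPrrx1 wound-healing fibroblasts, 1.45-fold lower. WT MEF had 299.8, 308 and 298 CPM. Prrx1 mutant MEF were lower, at 237, 192 and 208 CPM, while sgPrrx1 MEF were higher, at 379, 361 and 399 CPM. The log2 fold changes were −0.53 ± 0.10 (SE) in the mutant, 0.32 ± 0.06 in sgPrrx1 MEF and −0.54 ± 0.02 in wound-healing fibroblasts, so the direction differed between the mutant and the sgPrrx1 MEF. From highest to lowest mean the groups ran sgPrrx1 MEF, WT MEF, WT wound-healing fibroblasts, Prrx1 mutant MEF, WT MMTV-CAF, sgPrrx1 wound-healing fibroblasts and sgPrrx1 MMTV-CAF. The mutant MEF overlapped both of their neighbours in that order.

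H19, at chr7:142575530-142578146, is a growth-restraining noncoding RNA transcribed next to Igf2. It was largely a transcript of MEF, with 91.9, 86.1 and 80.0 CPM in WT cultures, and it was nearly absent from Prrx1 mutant MEF, at 1.24, 1.92 and 0.895 CPM. This was 63.6-fold lower (log2 fold change −6.00 ± 0.28 SE, adjusted p = 6.87e-06, edgeR quasi-likelihood test with Benjamini-Hochberg adjustment over all genes tested, as for every adjusted p that follows). In sgPrrx1 MEF it stood above WT instead, at 118, 107 and 104 CPM, a rise of 0.34 ± 0.08 on the log2 scale (adjusted p = 0.0157) that was lost without WT replicate 2 (adjusted p = 0.0574) and in one model of all 21 cultures (adjusted p = 0.185). H19 was scarce elsewhere. WT wound-healing fibroblasts had 0.383, 0.507 and 0.405 CPM and edited ones 0.101, 0.172 and 0 CPM, a fall of 2.16 ± 0.61 (adjusted p = 0.0103). WT MMTV-CAF had 28, 11 and 14 reads and sgPrrx1 MMTV-CAF 0 reads in each culture, at least 6.13-fold lower (adjusted p = 0.00232).

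Cdkn1c, at chr7:143458339-143461059, encodes the CDK inhibitor p57, a brake on the cell cycle. It was the member that rose in Prrx1 mutant MEF, from 11.9, 14.5 and 14.5 CPM in WT to 35.6, 32.0 and 33.9 CPM (log2 fold change 1.29 ± 0.11, adjusted p = 9.08e-05). In sgPrrx1 MEF it stayed near WT, at 11.9, 12.3 and 11.5 CPM (−0.21 ± 0.10, adjusted p = 0.133). Edited wound-healing fibroblasts rose from 5.80, 5.72 and 5.80 to 8.25, 9.22 and 8.04 CPM (0.56 ± 0.07, adjusted p = 7.30e-05). The edited CAF went the other way. WT MMTV-CAF had 1.20, 1.18 and 0.936 CPM and all 3 sgPrrx1 MMTV-CAF cultures 0 reads, at least 43.9-fold lower (adjusted p = 8.11e-06). Grb10 and Cdkn1c were 2 of the 82 genes with at least 100 counts in every WT MMTV-CAF culture and none after editing.

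Zim1, a zinc finger gene beside Peg3 at chr7:6674444-6696540, was not detectable as expressed at this depth. Its highest count was 10 reads, in WT wound-healing fibroblasts replicate 1, and it was at 0 in all sgPrrx1 MEF and all MMTV-CAF cultures. It passed the filter on low counts in no comparison, so 7 of the 8 members that were not chosen by their changes were tested in each.

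Of the paternally expressed genes, Peg3 encodes a zinc finger protein of chr7:6703892-6730462 that acts in growth and p53-linked cell death. Its level differed by cell type and was below WT in every Prrx1-loss group. WT MEF had 88.3, 85.6 and 80.6 CPM, Prrx1 mutant MEF 23.5, 24.6 and 25.6 CPM, and sgPrrx1 MEF 13.3, 12.6 and 13.8 CPM. These were 3.46-fold and 6.40-fold lower than WT (log2 fold changes −1.81 ± 0.08 and −2.69 ± 0.07 SE), so Peg3 was lower in sgPrrx1 MEF, which kept more Prrx1 transcript, than in the mutant. Wound-healing fibroblasts were at 26.3, 26.0 and 25.8 CPM in WT and 18.04, 16.8 and 18.8 CPM after editing, 1.46-fold lower (−0.55 ± 0.04). WT MMTV-CAF held little Peg3, with 50, 80 and 99 reads, and edited MMTV-CAF held 0 reads in each culture, at least 25.3-fold lower. The order of group means was WT MEF, WT wound-healing fibroblasts, mutant MEF, sgPrrx1 wound-healing fibroblasts, sgPrrx1 MEF, WT MMTV-CAF and sgPrrx1 MMTV-CAF, and no neighbours in it overlapped.

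**Figure D1:**
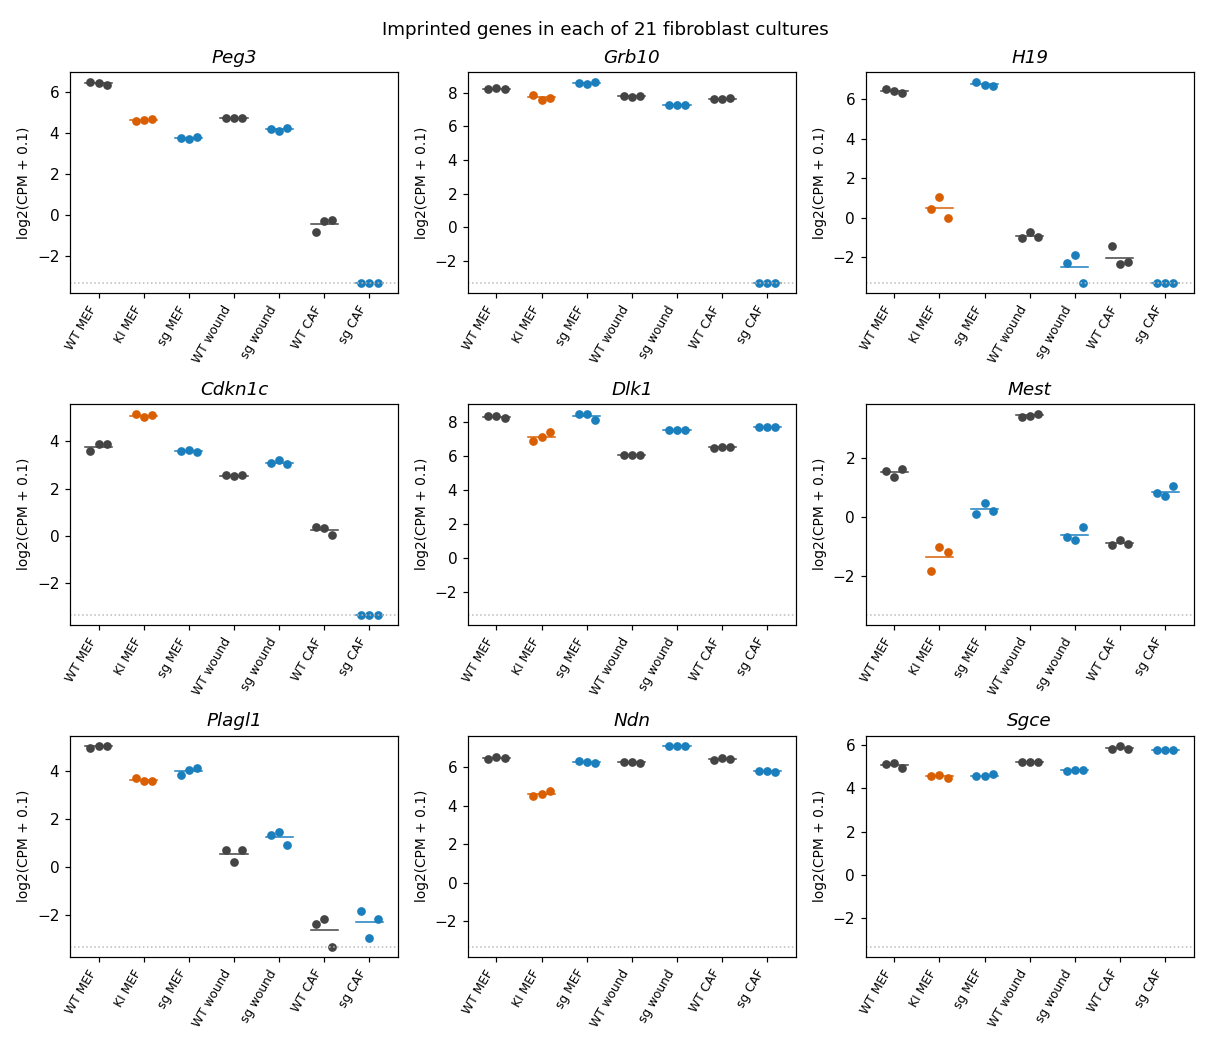
Level of 9 imprinted genes in each of 21 cultures, as log2(CPM + 0.1) on the vertical axis, by group on the horizontal axis; points are cultures, short lines the mean of 3, grey WT, orange Prrx1 mutant and blue sgPrrx1, and the dotted line marks 0 reads. All 3 sgPrrx1 CAF cultures sit on the dotted line for Peg3, Grb10, H19 and Cdkn1c, while Dlk1, Ndn and Sgce stay well above it in all 21.

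Dlk1, at chr12:109452485-109463336, encodes a membrane protein of the Notch ligand family that holds back adipocyte differentiation. It rose after editing in both adult cell types. Wound-healing fibroblasts went from 68.1, 68.2 and 68.1 CPM to 189, 189 and 188 CPM, a 2.77-fold rise (log2 fold change 1.47 ± 0.02, adjusted p = 9.06e-11). MMTV-CAF went from 90.8, 94.7 and 94.1 CPM to 209.6, 207 and 206 CPM, a 2.23-fold rise (1.14 ± 0.02, adjusted p = 2.06e-09). MEF behaved differently. From 323, 330.4 and 305 CPM in WT it fell to 118, 142 and 170.1 CPM in the mutant (−1.18 ± 0.13, adjusted p = 2.93e-04), and sgPrrx1 MEF at 360.1, 355 and 274 CPM overlapped WT (0.03 ± 0.11, adjusted p = 0.828). The highest and the lowest group mean of Dlk1 were 4.84-fold apart.

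Mest, at chr6:30733506-30748466, encodes a hydrolase-like protein that marks growing mesoderm. It carried the largest fall of any member in edited wound-healing fibroblasts, from 10.4, 10.6 and 11.1 CPM to 0.526, 0.472 and 0.692 CPM, 18.98-fold lower (−4.26 ± 0.12, adjusted p = 6.07e-09). MEF had less of it too, from 2.83, 2.43 and 2.98 CPM in WT to 0.181, 0.390 and 0.337 CPM in the mutant (−3.20 ± 0.29, adjusted p = 1.18e-04) and to 0.976, 1.29 and 1.03 CPM with sgPrrx1 (−1.34 ± 0.17, adjusted p = 0.00129). In MMTV-CAF the direction was opposite, with a 3.87-fold rise from 0.411, 0.479 and 0.430 CPM to 1.63, 1.54 and 1.95 CPM (1.93 ± 0.16, adjusted p = 1.02e-05). Mest overlaps the 3′ end of Copg2 on the other strand, and the library kit did not keep the strand, so reads of the overlap cannot be told apart.

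Plagl1, at chr10:13090832-13131694, encodes a zinc finger transcription factor known to regulate other imprinted genes. It was highest in WT MEF, at 30.7, 32.8 and 33.0 CPM, and fell in both Prrx1-loss MEF groups. Mutant MEF had 13.0, 11.7 and 11.9 CPM (−1.42 ± 0.09, adjusted p = 2.61e-05) and sgPrrx1 MEF 14.3, 16.3 and 17.3 CPM (−1.02 ± 0.09, adjusted p = 2.59e-04). Edited wound-healing fibroblasts rose from 1.54, 1.06 and 1.505 CPM to 2.38, 2.63 and 1.78 CPM (0.72 ± 0.20, adjusted p = 0.00898). MMTV-CAF had between 0 and 20 reads, and no difference was detectable at this depth (0.62 ± 0.93, adjusted p = 0.551).

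Ndn, the 1-exon gene of chr7:62348277-62349928, encodes necdin, a growth suppressor of the MAGE family. Its direction differed by cell type. Mutant MEF fell to 22.6, 23.8 and 27.4 CPM from 86.2, 91.4 and 88.5 CPM in WT (−1.88 ± 0.09, adjusted p = 7.07e-06), and sgPrrx1 MEF to 80.5, 77.5 and 73.2 CPM (−0.22 ± 0.07, adjusted p = 0.0362). The last call was lost in 5 of the 6 fits that left out 1 culture. Wound-healing fibroblasts rose from 77.0, 77.0 and 74.8 CPM to 137, 137 and 138 CPM (0.84 ± 0.02, adjusted p = 4.02e-09). MMTV-CAF fell from 83.0, 86.8 and 84.7 CPM to 54.4, 55.2 and 53.8 CPM (−0.66 ± 0.03, adjusted p = 1.02e-07).

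Sgce, at chr6:4674350-4747204, encodes epsilon-sarcoglycan, a membrane protein of the dystrophin-associated complex. It was the steadiest member, with the highest and lowest group means 2.47-fold apart. WT MEF had 35.1, 35.9 and 30.9 CPM, mutant MEF 24.0, 24.7 and 22.2 CPM (−0.55 ± 0.10, adjusted p = 0.00301), and sgPrrx1 MEF 23.4, 23.4 and 25.1 CPM (−0.52 ± 0.08, adjusted p = 0.00302). Wound-healing fibroblasts fell from 37.5, 37.5 and 36.7 to 27.8, 28.3 and 28.9 CPM (−0.40 ± 0.03, adjusted p = 2.05e-06). The fall in MMTV-CAF was small, from 55.5, 62.9 and 56.9 to 54.4, 54.5 and 55.2 CPM (−0.11 ± 0.05, adjusted p = 0.0487), and it was lost under the filter, block, joint-model and left-out-culture settings named in the closing section.

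**Figure D2:**
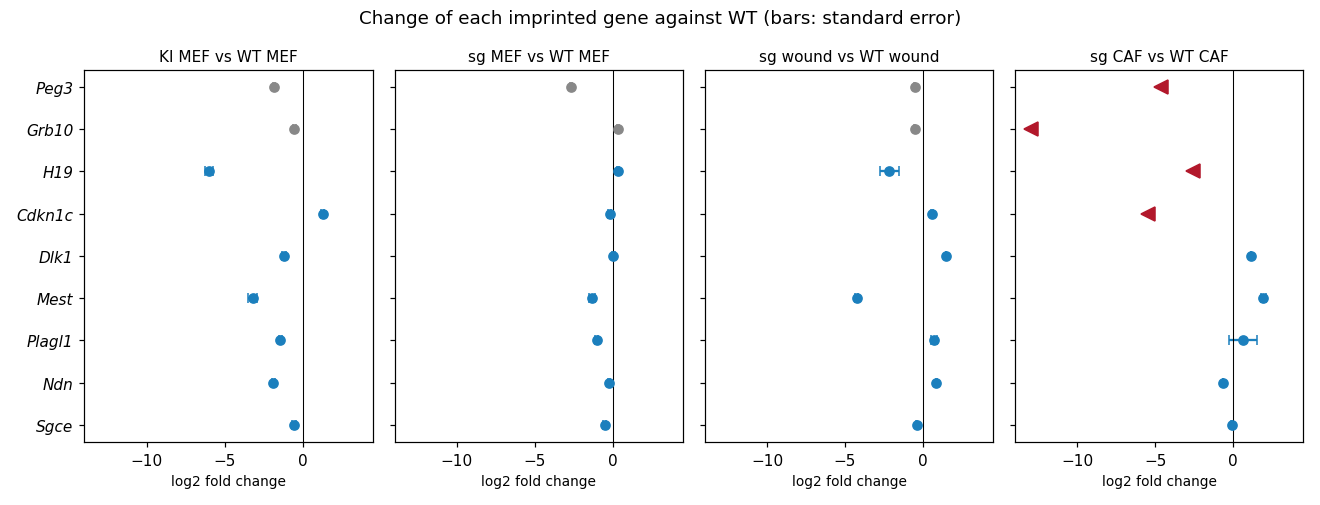
Log2 fold change against WT of the same cell type (horizontal axis) for 9 imprinted genes (rows) in 4 comparisons; bars are standard errors, often smaller than the points, grey points are Peg3 and Grb10, which were not tested, and red triangles mark lower bounds on a fall to 0 reads with 3 counts allowed per library. Cdkn1c lies right of 0 in mutant MEF, and Dlk1 lies right of 0 in wound-healing fibroblasts and CAF.

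Counted over the members that were not chosen by their changes, 6 of the 7 tested fell and 1 rose in Prrx1 mutant MEF, where 30.5% of 13616 genes tested were lower and 29.4% higher. All 7 calls held in every alternative fit. In sgPrrx1 MEF 4 fell and 1 rose, beside 22.8% of 13372 genes lower and 20.3% higher. The median log2 fold change of the 7 was −1.42 in the mutant and −0.22 in sgPrrx1 MEF, with all genes at 0.01 and 0.00. The 2 comparisons share their WT cultures. In sgPrrx1 wound-healing fibroblasts 3 fell and 4 rose, beside 39.3% and 38.3% of 13939 genes, and in sgPrrx1 MMTV-CAF 4 fell and 2 rose, beside 41.9% and 41.2% of 13903 genes. With that many genes called, the number of members called in adult fibroblasts is close to what all genes show.

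Set directly against each other, sgPrrx1 MEF exceeded Prrx1 mutant MEF in 5 of the 7 tested members and were below them in 1, Cdkn1c, beside 27.8% of 13379 genes higher and 28.4% lower. H19 differed most, 81.1-fold higher in sgPrrx1 MEF (log2 fold change 6.33 ± 0.28, adjusted p = 9.20e-06), and Cdkn1c was 2.84-fold lower (−1.50 ± 0.08, adjusted p = 1.53e-05). Ndn, Mest and Dlk1 were 3.14-fold, 3.63-fold and 2.30-fold higher. Sgce did not pass the test (0.03 ± 0.07, adjusted p = 0.793).

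Whether editing of Prrx1 changed a member differently in MEF, wound-healing fibroblasts and MMTV-CAF was tested as an interaction of cell type and genotype over 18 cultures. All 7 tested members passed, where 80.1% of 14972 genes did. Cell type goes with the edited line in each type and, for MMTV-CAF, with strain. These cannot be told apart here, so the test compares the lines and not cell types as such. Mest had the smallest adjusted p, 1.75e-12, and its change was 2.95 ± 0.21 lower in wound-healing fibroblasts than in MEF and 3.29 ± 0.21 higher in MMTV-CAF than in MEF, as differences of log2 fold changes. Ndn was 1.02 ± 0.06 higher in wound-healing fibroblasts than in MEF and 1.45 ± 0.06 lower in MMTV-CAF than in wound-healing fibroblasts. Dlk1 changed 1.40 ± 0.11 more in wound-healing fibroblasts and 1.12 ± 0.11 more in MMTV-CAF than in MEF, and less in MMTV-CAF than in wound-healing fibroblasts by 0.28 ± 0.11 (adjusted p = 0.0329). Sgce differed least, and between wound-healing fibroblasts and MEF its changes were within error of each other (0.09 ± 0.08, adjusted p = 0.383).

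The genes that share a domain with a member come from a list of 66 other imprinted genes, 65 of which were in the tables. Imprinting of the listed genes is described in at least some mouse tissues. Whether they were read from one parental copy in these cells was not measured. Beside H19, Igf2, the fetal growth factor that is silent on the copy from which H19 is read, fell in 3 comparisons. WT MEF had 2.52, 3.57 and 5.78 CPM of Igf2 and mutant MEF 0.206, 0.260 and 0.161 CPM (−4.24, adjusted p = 1.22e-04). Wound-healing fibroblasts went from 6.29, 12.9 and 6.97 CPM to 0.134, 0.0859 and 0 CPM (−6.79, adjusted p = 3.20e-06), and MMTV-CAF from 9.09, 5.54 and 5.50 CPM to 1.10, 1.18 and 1.20 CPM (−2.55, adjusted p = 1.04e-05). In sgPrrx1 MEF Igf2 did not pass the test (0.47, adjusted p = 0.207). H19 and Igf2, which are used from opposite parental copies, were thus lower together in those 3 comparisons.

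Beside Dlk1, the maternally expressed noncoding RNAs Meg3, Rian and Mirg fell in each comparison with WT in which they were tested. Meg3 fell by 2.37 in mutant MEF, by 1.36 in sgPrrx1 MEF and by 1.35 in wound-healing fibroblasts on the log2 scale, and sgPrrx1 MMTV-CAF held 0 reads, at least 15.1-fold lower. Rian averaged 178.6 CPM in WT MEF, 31.8 CPM in mutant MEF and 64.1 CPM in sgPrrx1 MEF, and 89.6 against 19.8 CPM in WT and edited wound-healing fibroblasts. Dio3, a thyroid hormone-inactivating enzyme of the same domain, was 1.42, 1.07 and 1.21 CPM in WT MMTV-CAF and 34.2, 35.4 and 35.4 CPM in edited ones (4.81, adjusted p = 8.59e-10). It also rose in mutant MEF (4.52, adjusted p = 0.00135), where the WT cultures had 14 reads in all, and fell in wound-healing fibroblasts (−1.65, adjusted p = 0.0109). Begain fell with Dlk1 in the mutant (−1.65) and rose with it in wound-healing fibroblasts (0.79), but in MMTV-CAF it fell (−0.75) where Dlk1 rose.

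In the Grb10 domain, Cobl, an actin nucleator, shared the loss in edited MMTV-CAF, with a mean of 2.22 CPM in WT and 0 reads after editing, at least 88.0-fold lower (adjusted p = 1.54e-06). Ddc, which makes dopamine and serotonin, averaged 0.596 CPM in WT and 4 reads in all after editing. Fignl1, a gene near Grb10 that was looked up as a neighbour after the values were seen, stayed at 21.8 CPM in both (−0.02, adjusted p = 0.944). Of the other neighbours looked up, Egfr, 4822 kb away, fell (−1.07, adjusted p = 7.46e-09). Sec61g, 4571 kb away, did not pass the test (0.03, adjusted p = 0.496), and 1700042O10Rik was not tested. Cobl fell in mutant MEF (−1.96, adjusted p = 9.45e-05), where Grb10 was lower, and rose in sgPrrx1 MEF (0.51, adjusted p = 0.0268), where Grb10 was higher. In edited wound-healing fibroblasts Cobl rose (2.44, adjusted p = 1.65e-09), where Grb10 was lower. The deubiquitinase Usp29, which starts next to Peg3, was tested in 3 comparisons and fell in sgPrrx1 MEF (−3.50, adjusted p = 0.00722). It had 132 reads over the 3 WT MEF cultures and 11 over the sgPrrx1 MEF cultures.

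Around Ndn, Snrpn and Snurf, which share one transcript so that reads may be split between them, rose in mutant MEF while Ndn fell. All 96 reads of Snurf in WT MEF came from a single culture. Snrpn averaged 0.455 CPM in WT and 9.16 CPM in mutant MEF (4.32, adjusted p = 1.27e-05). Snrpn fell in sgPrrx1 MEF (adjusted p = 0.0379), to 13 reads over the 3 cultures. Both had 0 reads in sgPrrx1 MMTV-CAF, at least 60.6-fold below the WT mean for Snrpn and 241-fold for Snurf. The Snrpn mean was uneven, with 48 to 400 reads per WT MMTV-CAF culture, and its bound does not cover that spread. Magel2 fell in mutant MEF (−3.21, adjusted p = 0.00610) and rose in wound-healing fibroblasts (2.52, adjusted p = 0.0220), on at most 18 reads per culture. Mkrn3 fell in mutant MEF (−0.56) and wound-healing fibroblasts (−0.60) and rose in MMTV-CAF (1.81). Peg12 rose in all 4 comparisons with WT, by 0.35 to 0.80. The ubiquitin ligase Ube3a rose in both MEF comparisons (0.98 and 0.50) and in MMTV-CAF (0.24), and fell in wound-healing fibroblasts (−0.16). Snhg14 fell in MMTV-CAF (adjusted p = 5.00e-04), from 218 reads in WT to 2 after editing.

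In the Sgce domain, Peg10, a retrotransposon-derived gene that begins beside Sgce, rose in mutant MEF (0.81, adjusted p = 0.00840) where Sgce fell. Peg10 fell in sgPrrx1 MEF (−0.61, adjusted p = 0.0435), in wound-healing fibroblasts from 65.7, 67.5 and 66.1 to 30.3, 30.0 and 30.7 CPM (−1.14), and in MMTV-CAF from 67.7, 66.8 and 73.3 to 29.8, 31.4 and 31.7 CPM (−1.18). Ppp1r9a rose in mutant MEF (2.64) and wound-healing fibroblasts (3.21). Tfpi2 rose in wound-healing fibroblasts from 4 reads in all to 430, and in MMTV-CAF fell from 468 reads to 4. The paraoxonase Pon2 rose in both MEF comparisons (1.23 and 0.68) and in MMTV-CAF (0.58) and fell in wound-healing fibroblasts (−0.41). Pon3 fell in mutant MEF (−0.82) and rose in wound-healing fibroblasts (0.38), and Casd1 rose in mutant MEF (0.54) and MMTV-CAF (0.27).

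Near Cdkn1c, the noncoding RNA Kcnq1ot1, which silences this domain on the paternal copy, rose in edited wound-healing fibroblasts (1.37, adjusted p = 2.37e-06) and MMTV-CAF (1.84, adjusted p = 2.56e-06), and did not pass the test in MEF (0.02 and 0.19). Slc22a18, an organic cation transporter gene near Cdkn1c, went from 239 reads over the WT MMTV-CAF cultures to 0. It was at least 26.9-fold lower (adjusted p = 2.87e-05). Osbpl5 fell in mutant MEF (−1.36) and MMTV-CAF (−2.10) and rose in wound-healing fibroblasts (0.68). The tetraspanin Cd81 fell in all 4 comparisons with WT, by 0.996, 0.56, 0.10 and 0.68 on the log2 scale in mutant MEF, sgPrrx1 MEF, wound-healing fibroblasts and MMTV-CAF. Phlda2 rose in sgPrrx1 MEF (1.75) and wound-healing fibroblasts (0.53), Tspan32 fell in MMTV-CAF (−3.02), and Tssc4 and Nap1l4 had log2 fold changes of at most 0.18 in size. Beside Mest, Copg2 had log2 fold changes between −0.28 in sgPrrx1 MEF and 0.52 in MMTV-CAF.

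**Figure D3:**
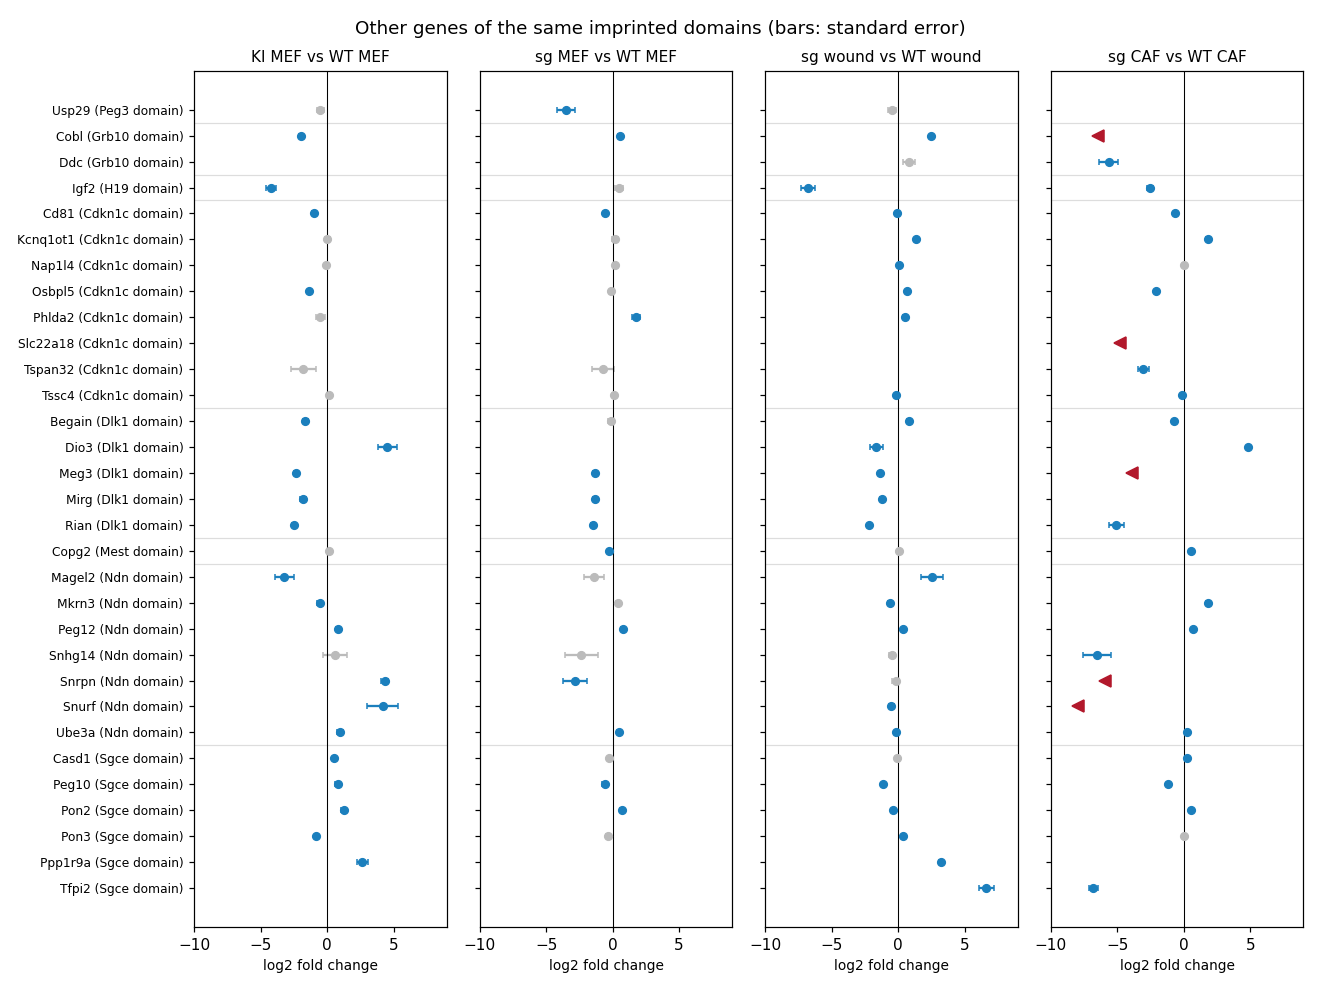
Log2 fold change against WT (horizontal axis) of other genes in the domains of the members (rows, grouped by domain), in 4 comparisons; bars are standard errors, blue points passed an adjusted p of 0.05, grey points did not, and red triangles are lower bounds on a fall to 0 reads. Meg3 and Rian lie left of 0 in all 4 panels, whereas Dio3 lies at 4.81 in CAF.

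Over the whole list of other imprinted genes, 20 of 44 tested fell and 11 rose in mutant MEF, 15 of 41 fell and 9 rose in sgPrrx1 MEF, 18 of 45 fell and 17 rose in wound-healing fibroblasts, and 25 of 41 fell and 13 rose in MMTV-CAF. Between sgPrrx1 and mutant MEF 12 of 41 were lower and 18 higher. The shares of all genes called lower and higher were 30.5% and 29.4%, 22.8% and 20.3%, 39.3% and 38.3%, 41.9% and 41.2%, and 28.4% and 27.8% in these comparisons in turn, so in wound-healing fibroblasts the list was called about as often as all genes. In sgPrrx1 MEF the 24 calls became 14 without WT replicate 2. The median log2 fold changes were −0.47, −0.24, −0.10, −0.64 and 0.20 in these 5 comparisons in turn, while those of all genes lay between −0.02 and 0.01. The changes were also larger than those of all genes: 47.7%, 26.8%, 31.1%, 56.1% and 46.3% of the list differed by at least 1 in size on the log2 scale, against 25.8%, 12.3%, 16.2%, 24.9% and 22.4% of all genes tested. The list was drawn up with earlier results of these data known. It holds genes near 0 reads, such as Magel2 and Usp29, and genes that share a transcript, such as Snrpn and Snurf. It was not tested against other genes.

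**Figure D4:**
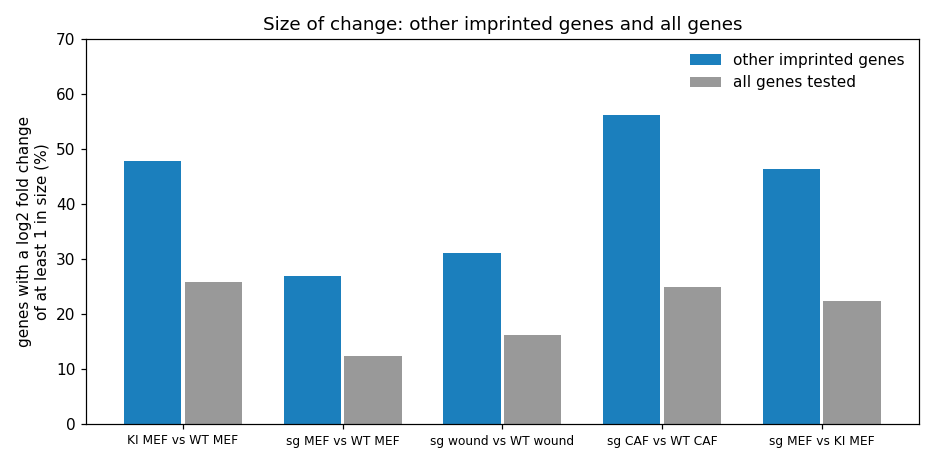
Share of genes whose log2 fold change was at least 1 in size (vertical axis, percent) for other imprinted genes (blue) and all genes tested (grey) in 5 comparisons. The blue bar is the higher in each, up to 56.1% against 24.9% in CAF.

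Of the listed genes outside the members' domains, Zdbf2 went from 240 reads over the WT MEF cultures to 0 in the mutant, at least 26.6-fold lower, and also fell in sgPrrx1 MEF (−2.12), but it rose in wound-healing fibroblasts from a mean of 4.88 to 14.5 CPM (1.57). The matrix proteoglycan Dcn, which is also on the fibroblast marker list, fell in mutant MEF (−8.39), sgPrrx1 MEF (−2.36) and wound-healing fibroblasts (−1.20), and in MMTV-CAF rose from 32.4 to 588 CPM (4.16). The amino acid transporter Slc38a4 had the same directions, with −3.69, −1.46 and −2.95, and a rise from 2.47 to 95.8 CPM in MMTV-CAF (5.26). Rasgrf1 rose in MMTV-CAF (4.29), where Sfmbt2 (−4.86), H13 (−1.19) and Peg13 (−1.03) fell. The antisense RNA Nespas rose in mutant MEF (1.83), sgPrrx1 MEF (0.77) and wound-healing fibroblasts (0.95). Commd1 rose in sgPrrx1 MEF (0.87) and fell in wound-healing fibroblasts (−0.75), Sfmbt2 rose in sgPrrx1 MEF (0.46), and Peg13 rose in mutant MEF (0.27) and wound-healing fibroblasts (0.31).

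Of 14 listed genes that maintain imprints, 11 were tested in MEF and wound-healing fibroblasts and 13 in MMTV-CAF. In mutant MEF 2 fell and 2 rose, where 30.5% of all genes were lower and 29.4% higher: the demethylase Tet3 (1.15) and Zfp445 (0.67) rose, and the methyltransferase Dnmt3a (−0.70) and Zfp57 (−0.44) fell. In sgPrrx1 MEF 4 rose and 0 fell, Dnmt3b (0.61) most, where 20.3% of all genes were higher. Edited wound-healing fibroblasts had 9 rises, among them Zfp57 (0.77) and Dnmt1 (0.46), and edited MMTV-CAF had 8 rises and 2 falls, with Dnmt3l (2.29) the largest rise and Tet1 (−2.79) and Zfp57 (−1.20) the falls. Of all genes, 38.3% were higher and 39.3% lower in wound-healing fibroblasts, and 41.2% and 41.9% in MMTV-CAF.

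Partners of the member proteins were counted too, 15 genes that were tested in every comparison. In mutant MEF 4 fell and 5 rose, with Dag1 (1.69), the dystroglycan that binds the sarcoglycan complex, and Notch1 (−1.26), which Dlk1 can inhibit, the largest. Notch1 also fell in sgPrrx1 MEF (−0.82), wound-healing fibroblasts (−0.64) and MMTV-CAF (−1.14). In sgPrrx1 MEF 4 fell and 2 rose, in wound-healing fibroblasts 7 fell and 4 rose, and in MMTV-CAF 6 fell and 8 rose, with the delta-sarcoglycan gene Sgcd (−3.56) the largest and Ccna2 (1.13) the largest rise. Over all genes the shares lower and higher were 30.5% and 29.4% in mutant MEF, 22.8% and 20.3% in sgPrrx1 MEF, 39.3% and 38.3% in wound-healing fibroblasts and 41.9% and 41.2% in MMTV-CAF.

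The profile over the 7 group means, each centred on its own mean, was compared with that of 7725 genes that varied between groups. For Peg3 the closest were Rian and Meg3, with a root mean square difference of 0.69 and 0.75 on the log2 scale, then Slc38a1 at 0.88. Rian and Meg3 lie on another chromosome and are read from the other parental copy. Like Peg3, they averaged at most 1.14 CPM in WT and edited MMTV-CAF, which weighs on this likeness. Peg3 was chosen by its changes, and shared regulation was not tested. Grb10, whose profile was set by its 0 reads in edited MMTV-CAF, was nearest to Fhl1, Gpc6 and Slc12a7, at 1.16 to 1.35. Begain, of the Dlk1 domain, was nearest to Ndn (0.25), whereas Dlk1 was nearest to Sptbn4 (0.15), D930015E06Rik (0.25) and Eml5 (0.29). H19 was nearest to Ldb2, at 1.65. Sgce, the steadiest, was nearest to Hsd17b11 and Rab4b, both at 0.10, and the nearest to Mest, Plagl1 and Cdkn1c were Gstk1 (0.93), Dock3 (0.76) and Gpr39 (0.80). These are likenesses over 7 groups that share cell types and libraries. The differences were not scaled to a member's own spread over the groups, an SD of 4.81 for H19 and 0.53 for Sgce. They therefore do not rank the members by how close a match they had.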

How the data were processed

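RNA-seq of 21 cultures was analysed from 3 deposited tables. The authors used Trimmomatic, STAR (mm10) and HTSeq, and deposited unnormalised counts for each gene symbol. Their methods name ComBat-seq without saying whether these tables were corrected with it. Columns of wound-healing fibroblasts name genotype and number only and were assigned by elimination, and 1 MEF column prefix spelled with a letter more was read as KI. Tests were run with edgeR 4.0.16 under R 4.3.3 (filterByExpr, TMM, glmQLFit, glmQLFTest, Benjamini-Hochberg adjusted p under 0.05), using the 6 cultures of a comparison. The log2 fold changes come from these fits, and the standard error is the absolute log2 fold change divided by the square root of F. CPM used TMM over all 21 cultures, and log2 CPM a prior count of 2. A fold against 3 libraries at 0 used 3 counts per library and covers counting error only. Members, lists and tests were chosen with earlier results of these data known. All members are named. Of other imprinted genes, those in a member's domain and the 3 largest falls and rises elsewhere are named, and of the 2 further lists up to 4 genes. Alternatives were RLE and upper-quartile scaling, DESeq2 1.42.0, 2 filters, the replicate block, one model of all 21 cultures and each culture left out. The main fits did not pair cultures by replicate number, since the labels do not say what it marks. In no comparison did all same-numbered cultures correlate above 0.1, which does not exclude pairing. Between sgPrrx1 and WT MEF the same-numbered correlations were 0.0848, −0.0205 and 0.13, and the largest other one was 0.0321. The replicate block raised the calls over all genes there from 5764 to 6629 and lowered them in the other comparisons. The steps were tested on simulated data. Positions are GRCm38 (RefSeq), and plots were drawn with matplotlib 3.10.9.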

Additional observations from a re-analysis of the deposited data

Results flagged for a closer look

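The change with editing of Prrx1 differed between the MEF, wound-healing fibroblast and MMTV-CAF lines for 7 members by the interaction test. The adjusted p-values (edgeR) were 1.75e-12 for Mest, 6.03e-12 for Ndn, 4.44e-11 for Cdkn1c, 1.74e-08 for Dlk1, 5.86e-05 for H19, 3.56e-04 for Sgce and 0.00132 for Plagl1. Of all genes, 80.1% passed that test, and cell type, line and strain cannot be told apart in it. Grb10 had a log2 fold change of 0.32 in sgPrrx1 MEF and of −0.54 in sgPrrx1 wound-healing fibroblasts. This difference was not tested, because Grb10 was chosen by its changes in these same counts.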

How the results depend on the processing

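The counts of called members and of other imprinted genes stayed within 1.5 times the reported value under every scaling, DESeq2, the replicate block and the joint model. The exceptions follow. With at least 10 counts in every culture, 4 rather than 7 members passed the interaction test, because H19, Cdkn1c and Plagl1 were then not tested. Leaving out 1 culture each in turn gave 3 to 5 called members and 14 to 24 other imprinted genes in sgPrrx1 MEF, and the lowest came without WT replicate 2. The calls over all genes there fell from 5764 to 3830 without it and to 3834 without sgPrrx1 replicate 2. Smaller shifts, within 1.5 times, were seen too. Under the replicate block, in which the numbers share no stated meaning, 5 rather than 6 members were called between sgPrrx1 and mutant MEF, since Plagl1 missed the threshold (adjusted p = 0.0766). The block also ended the Sgce call in MMTV-CAF (adjusted p = 0.0548), as did no filter (0.0648), the joint model (0.160) and 4 of 6 left-out cultures (0.0585 to 0.120). Values near 0 that had not passed the test turned sign: with 1 culture left out, Dlk1 in sgPrrx1 MEF ran from −0.031 to 0.15, Plagl1 in MMTV-CAF from −0.025 (without WT replicate 3) to 1.29, and Sgce between sgPrrx1 and mutant MEF from −0.024 to 0.052, and Sgce was −0.012 there with upper-quartile scaling. Levels near 0 reads (Zim1, H19 and Plagl1 in adult cells) limit precision.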
